A study of Bos taurus with 9 samples.

Results

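The genes described here make, move, break down and sense prostaglandins. They were chosen by symbol, from a list of 10 genes: the cyclooxygenases PTGS1 and PTGS2, the prostaglandin E synthases PTGES, PTGES2 and PTGES3, the degrading enzyme HPGD, the transporter SLCO2A1, and the receptors PTGER2, PTGER4 and PTGFR. The count table listed 30641 genes and held all 10. Of these, 8 had enough counts to be tested, among 14874 tested genes in all. HPGD and PTGER2 did not pass that filter and are described by their counts only.

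Prostaglandins are lipid signals made from arachidonic acid. A cyclooxygenase converts the acid into an unstable intermediate, and terminal synthases turn that into prostaglandin E, prostaglandin F, prostacyclin and related products, which act on G protein-coupled receptors. In the cow, prostaglandin F from the endometrium (the lining of the uterus) ends the life of the corpus luteum, and the balance of prostaglandins there changes when an embryo is present.

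The 9 RNA-seq libraries came from bovine cells that the labels call endometrial epithelial, 3 from each of 3 groups, all grown in 1 commercial medium. The DPPA3 mRNA group was transfected 24 hours after seeding with 500 ng of DPPA3 mRNA, produced in vitro, and the reagent jetMESSENGER. In the reagent alone group jetMESSENGER was added at that time with no RNA. The untreated control group received neither. Below, the 3 values of a group are in the order of replicates 1, 2 and 3. No group received another mRNA, and the time from treatment to harvest is not given in the sources used here. The labels do not say whether replicates are separate cultures or animals, and the p-values speak only of how these libraries vary, a variation that may be technical.

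Total counts lay between 3890134, in reagent alone replicate 1, and 13258036, in DPPA3 mRNA replicate 1. In untreated control replicate 1 a single gene, LOC112442408, took 10.98% of the counts, against 3.05% to 4.36% for the leading gene of the other libraries. DPPA3 itself had 126334 to 213790 counts in the DPPA3 mRNA libraries, 0 in each reagent alone library and 0 to 2 in the untreated control libraries. Of 12 epithelial marker genes 7 were tested, with KRT8 between 3802 and 4995 CPM (read counts scaled to a common library size), while GRHL2 had 0 counts and EPCAM 37 over all libraries. Of 11 stromal markers 10 were tested, and COL1A2 lay between 11063 and 16021 CPM, while THY1 had 58 counts and TCF21 4 over all libraries. The libraries thus held keratin and fibrillar collagen transcripts alike. The summed epithelial markers were at 8795 to 9793 (DPPA3 mRNA), 8591 to 8945 (reagent alone) and 8930 to 11059 CPM (untreated control). The summed stromal markers were at 28069 to 33090, 26642 to 34510 and 29091 to 44697 CPM in the same order of groups, highest in untreated control replicate 1. These sums were mostly collagen. COL1A1, COL1A2 and COL3A1 averaged 10741, 13648 and 7328 CPM over all libraries, against 192 CPM for DCN, the next stromal marker. The epithelial sums were mostly keratin. KRT8, KRT19, KRT18 and KRT7 averaged 4260, 2645, 1818 and 486 CPM, against 51.8 CPM for CDH1, the next epithelial marker. Of 6 endothelial markers 3 were tested, with sums of 6.41 to 12.2 CPM and EMCN at 0 counts. Of 6 immune markers 4 were tested, with sums of 8.52 to 14.7 CPM and PTPRC at 0 counts. Their part in the results was not tested. In bulk RNA, fewer cells of a type and less RNA per cell cannot be told apart.

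No prostaglandin gene passed the test in any of the 3 comparisons. With edgeR's quasi-likelihood test and Benjamini-Hochberg adjustment over all genes, 0 of the 8 tested members were called with DPPA3 mRNA against reagent alone, where 0.00672% of all genes were called. Against untreated control the count was 0 of 8 for DPPA3 mRNA (background 0.0134%) and 0 of 8 for reagent alone (background 0%). These backgrounds are 1, 2 and 0 genes. With DPPA3 itself left out of the fit, 0 genes were called in either comparison of the DPPA3 mRNA group. DESeq2 also called 0 of the 8 in each comparison, where it called 0.0605%, 0.0672% and 0.0134% of all genes. It gave SLCO2A1 no adjusted p for DPPA3 mRNA against untreated control. At an unadjusted p under 0.05, edgeR found 0 members for DPPA3 mRNA against reagent alone (background 1.67%) and 0 against untreated control, where 2.09% of all genes were higher and 1.82% lower (3.91% in all). The 1 member at that level was PTGES3, higher with reagent alone than in untreated control, where 4.23% of all genes were higher and 5.96% lower (10.2% in all). No member had DPPA3 mRNA libraries that were all above or all below the reagent alone libraries, which 4.91% and 3.99% of all genes had. The members' median log2 fold change was 0.08 of DPPA3 mRNA over reagent alone, with 5 of 8 above 0. Over untreated control it was 0.26 with DPPA3 mRNA and 0.22 with reagent alone. Over all genes tested the medians were 0.0027, 0.0017 and -0.0099. The last 2 comparisons share the untreated control libraries, and both comparisons of DPPA3 mRNA share its own libraries.

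**Figure D1:**
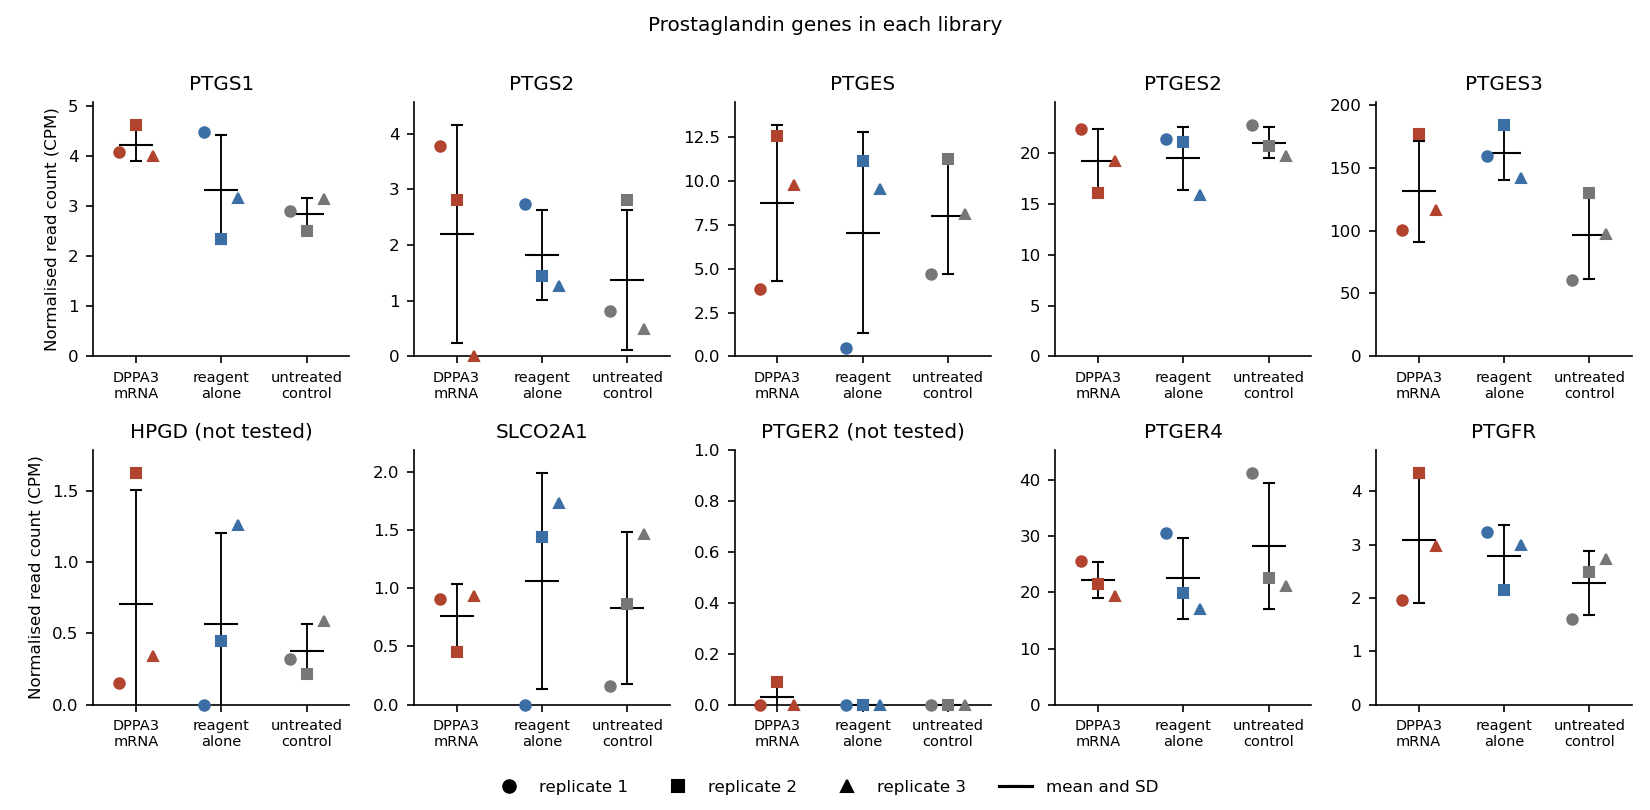
Normalised read count (CPM, vertical axes, each starting at 0) of the 10 prostaglandin genes in the 9 libraries; symbols mark replicate numbers, and lines the group mean and SD (n = 3), with SDs that would pass below 0 cut at the axis. PTGES is lowest in replicate 1 of every group, PTGS2 is at 0 in DPPA3 mRNA replicate 3, and PTGES3 in the reagent alone libraries lies above the untreated control libraries.

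The cyclooxygenases, which commit arachidonic acid to prostaglandin synthesis, had few counts. PTGS1, the form that most tissues express steadily, measured 4.07, 4.61 and 3.99 CPM in the DPPA3 mRNA libraries. It measured 4.48, 2.34 and 3.15 CPM in the reagent alone libraries, and 2.90, 2.49 and 3.13 CPM in the untreated control libraries. Every DPPA3 mRNA library lay above every untreated control library, while reagent alone replicate 1 lay inside the DPPA3 mRNA range. The means were 4.22 ± 0.34, 3.32 ± 1.08 and 2.84 ± 0.32 CPM in that order of groups (SD, n = 3 each). For DPPA3 mRNA against untreated control the log2 fold change was 0.57 (SE 0.38, edgeR adjusted p 0.85), with a 95% interval of -0.26 to 1.40. For DPPA3 mRNA against reagent alone it was 0.38 (SE 0.38, adjusted p 0.9998; 0.17 without reagent alone replicate 2 and 0.62 without reagent alone replicate 1), and for reagent alone against untreated control 0.18 (SE 0.40, adjusted p 0.84). PTGS1 was the 1 member of 8 whose DPPA3 mRNA and untreated control libraries did not overlap, in a comparison where 4.24% of all genes had every DPPA3 mRNA library higher and 3.86% had every one lower.

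PTGS2, the inducible cyclooxygenase, varied widely between libraries. Its counts were 50, 31 and 0 in the DPPA3 mRNA libraries, 11, 16 and 16 in those given the reagent alone, and 5, 26 and 5 in the untreated control libraries. The DPPA3 mRNA libraries thus held both the highest and the lowest value of the gene, at 3.77 CPM and at 0. The count of 0 in DPPA3 mRNA replicate 3 allows a level of up to 0.255 CPM, set by 3 counts, and this floor covers counting error only. The group means were 2.19 ± 1.96, 1.81 ± 0.81 and 1.37 ± 1.26 CPM for DPPA3 mRNA, reagent alone and untreated control (SD, n = 3 each), with all 3 groups overlapping. The log2 fold change of DPPA3 mRNA over reagent alone was 0.35 (SE 0.98, edgeR adjusted p 0.9998), and its 95% interval of -1.76 to 2.46 runs from 0.295-fold to 5.51-fold. Without DPPA3 mRNA replicate 3 the value was 0.93, and without DPPA3 mRNA replicate 1 it was -0.31. Against untreated control the log2 fold change was 0.66 (SE 0.98, adjusted p 0.88), 0.015 without DPPA3 mRNA replicate 1 and 1.78 without untreated control replicate 2. The replicates of PTGS2 in the DPPA3 mRNA group differed beyond counting error, with exact Poisson 95% intervals of 2.80 to 4.97 CPM in replicate 1 and 0 to 0.313 CPM in replicate 3. The upper end for replicate 3 lies above the floor of 0.255 CPM, which was fixed at 3 counts and not taken from this interval.

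The prostaglandin E synthases act after the cyclooxygenases. PTGES, the membrane enzyme that often works with PTGS2, measured 3.85, 12.6 and 9.76 CPM in the DPPA3 mRNA libraries. It measured 0.50, 11.1 and 9.53 CPM in the reagent alone libraries, and 4.67, 11.3 and 8.12 CPM in the untreated control libraries. In each group replicate 1 was the lowest and replicate 2 the highest, and the 3 groups overlapped. The lowest library, reagent alone replicate 1, had 2 counts of PTGES, with an exact Poisson 95% interval of 0.060 to 1.80 CPM that covers counting error only, so its low value lies below the other 8 libraries beyond counting error. The group means were 8.72 ± 4.45, 7.06 ± 5.74 and 8.02 ± 3.29 CPM (SD, n = 3 each, in the order DPPA3 mRNA, reagent alone, untreated control). The log2 fold changes were 0.21 for DPPA3 mRNA over reagent alone (SE 0.62, edgeR adjusted p 0.9998), 0.10 for DPPA3 mRNA over untreated control (SE 0.62, adjusted p 0.97) and -0.11 for reagent alone over untreated control (SE 0.63, adjusted p 0.94). Without reagent alone replicate 1 the first was -0.25 and the last 0.35.

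PTGES3, which is also known as the HSP90 co-chaperone p23, came closest to the threshold. It measured 101, 177 and 116 CPM in the DPPA3 mRNA libraries, with 159, 184 and 142 CPM in the reagent alone libraries, and 61.1, 130 and 97.2 CPM in the untreated control libraries. Every reagent alone library lay above every untreated control library, and the DPPA3 mRNA libraries overlapped both groups. Within each replicate number the reagent alone library was the highest and the untreated control library the lowest, an order that was not tested. The share of all genes with this order was not counted. The means were 131 ± 40.1 (DPPA3 mRNA), 162 ± 21.0 (reagent alone) and 96.1 ± 34.5 CPM (untreated control; SD, n = 3 each). For reagent alone over untreated control the log2 fold change was 0.75 (SE 0.26, 95% interval 0.18 to 1.31), or 1.68-fold. The unadjusted p was 0.013 and the edgeR adjusted p 0.47, so PTGES3 was not called. The value was 0.52 without untreated control replicate 1 and 1.03 without untreated control replicate 2, where the adjusted p was 0.061. In that comparison 6.92% of all genes had every reagent alone library higher and 7.21% had every one lower, and PTGES3 was the 1 of 8 members without overlap. For DPPA3 mRNA the log2 fold change of PTGES3 was 0.45 over untreated control (SE 0.26, adjusted p 0.85) and -0.30 over reagent alone (SE 0.26, adjusted p 0.9998). Without DPPA3 mRNA replicate 2 these were 0.17 and -0.57, the first was 0.72 without untreated control replicate 2, and the second was -0.14 without DPPA3 mRNA replicate 1.

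PTGES2, the second membrane-associated E synthase, was the steadiest member, with an SD of 0.19 in log2 CPM over the 9 libraries. It measured 22.4, 16.1 and 19.2 CPM in the DPPA3 mRNA libraries, with 21.4, 21.1 and 15.9 CPM in the reagent alone libraries, and 22.7, 20.7 and 19.7 CPM in the untreated control libraries. All 3 groups overlapped. The log2 fold change of DPPA3 mRNA over reagent alone was -0.012 (SE 0.22, edgeR adjusted p 0.9998), with a 95% interval of 0.718-fold to 1.37-fold. Over untreated control it was -0.13 for DPPA3 mRNA (SE 0.22, adjusted p 0.90) and -0.11 for reagent alone (SE 0.22, adjusted p 0.82).

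**Figure D2:**
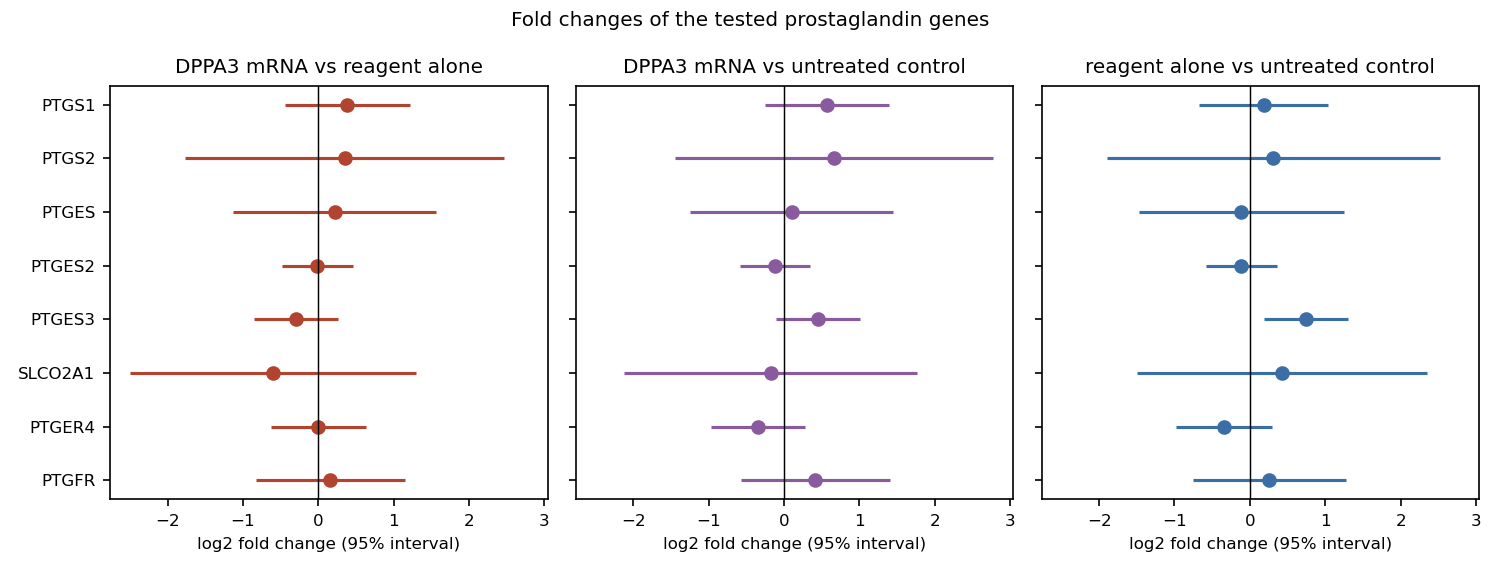
Log2 fold change (points) and 95% interval (lines, horizontal axes) of the 8 tested prostaglandin genes in the 3 comparisons, with positive values higher in the first-named group. The interval lies clear of 0 for PTGES3 with reagent alone against untreated control, at 0.75 (0.18 to 1.31), a difference that missed the threshold after adjustment over all genes, and the other 23 intervals cross 0.

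Removal of prostaglandins from the tissue depends on HPGD, which inactivates them by oxidation, and on SLCO2A1, the carrier that takes them into the cell. Both genes were near the detection limit. HPGD had 2, 18 and 4 counts in the DPPA3 mRNA libraries, 0, 5 and 16 counts in the reagent alone libraries, and 2, 2 and 6 counts in the untreated control libraries. The 2 highest libraries, DPPA3 mRNA replicate 2 at 1.63 CPM and reagent alone replicate 3 at 1.26 CPM, belonged to different groups. Pooled over libraries, HPGD stood at 0.665 CPM in the DPPA3 mRNA group (exact Poisson 95% interval 0.426 to 0.989), 0.754 CPM in the reagent alone group (0.467 to 1.15) and 0.390 CPM in the untreated control group (0.187 to 0.716). These intervals cover counting error only, and single libraries of a group differed by more, with 0.96 to 2.57 CPM in DPPA3 mRNA replicate 2 and 0.018 to 0.54 CPM in DPPA3 mRNA replicate 1, so no difference between groups is given.

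SLCO2A1 measured 0.90, 0.45 and 0.93 CPM in the DPPA3 mRNA libraries, against 0, 1.44 and 1.73 CPM in the reagent alone libraries, and 0.16, 0.87 and 1.47 CPM in the untreated control libraries. Those values rest on 0 to 22 counts a library, and the 3 groups overlapped. Its highest value in each of the groups came from replicate 3, though in the DPPA3 mRNA group replicates 3 and 1 had 11 and 12 counts. The edgeR test of the replicate number gave it an unadjusted p of 0.31. The count of 0 in reagent alone replicate 1, the library with the smallest total, allows a level of up to 0.747 CPM. The log2 fold change was -0.60 for DPPA3 mRNA over reagent alone (SE 0.88, edgeR adjusted p 0.9998) and -0.18 for DPPA3 mRNA over untreated control (SE 0.90, adjusted p 0.97), with intervals of -2.50 to 1.30 and -2.12 to 1.77. Without reagent alone replicate 1 the first was -1.04. For reagent alone over untreated control it was 0.42 (SE 0.89, adjusted p 0.84).

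Prostaglandin E is sensed by several receptors, of which PTGER2 (EP2) and PTGER4 (EP4) both raise cyclic AMP. PTGER2 had 1 count in DPPA3 mRNA replicate 2 and 0 in the other 8 libraries, which places it at 0.011 CPM over all libraries (exact Poisson 95% interval 2.8e-04 to 0.062). PTGER4 was detected in every library, with 123 to 340 counts. It measured 25.6, 21.6 and 19.4 CPM in the DPPA3 mRNA libraries, against 30.6, 19.9 and 17.0 CPM in the reagent alone libraries, and 41.3, 22.5 and 21.1 CPM in the untreated control libraries. Replicate 1 was the highest and replicate 3 the lowest in each of the 3 groups, and the groups overlapped. The log2 fold change of DPPA3 mRNA over reagent alone was 0.0022 (SE 0.29, edgeR adjusted p 0.9998), with a 95% interval of 0.649-fold to 1.55-fold. Over untreated control it was -0.34 both for DPPA3 mRNA (SE 0.29, adjusted p 0.85) and for reagent alone (SE 0.29, adjusted p 0.60). Without untreated control replicate 1, the library with the highest PTGER4 level, these were 0.031 and 0.026.

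PTGFR, the receptor for prostaglandin F, had 10 to 48 counts a library. It measured 1.96, 4.34 and 2.97 CPM in the DPPA3 mRNA libraries, against 3.24, 2.16 and 2.99 CPM in the reagent alone libraries, and 1.61, 2.49 and 2.74 CPM in the untreated control libraries. The groups overlapped, and their means of 3.09 ± 1.19, 2.80 ± 0.57 and 2.28 ± 0.59 CPM (SD, n = 3 each) lay within the spread of the replicates. The log2 fold changes were 0.16 for DPPA3 mRNA over reagent alone (SE 0.46, edgeR adjusted p 0.9998), 0.42 for DPPA3 mRNA over untreated control (SE 0.46, adjusted p 0.86) and 0.26 for reagent alone over untreated control (SE 0.47, adjusted p 0.81). Over untreated control, that of DPPA3 mRNA was 0.097 without DPPA3 mRNA replicate 2 and 0.66 without DPPA3 mRNA replicate 1, and that of reagent alone was 0.087 without untreated control replicate 1 and 0.43 without reagent alone replicate 2.

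**Figure D3:**
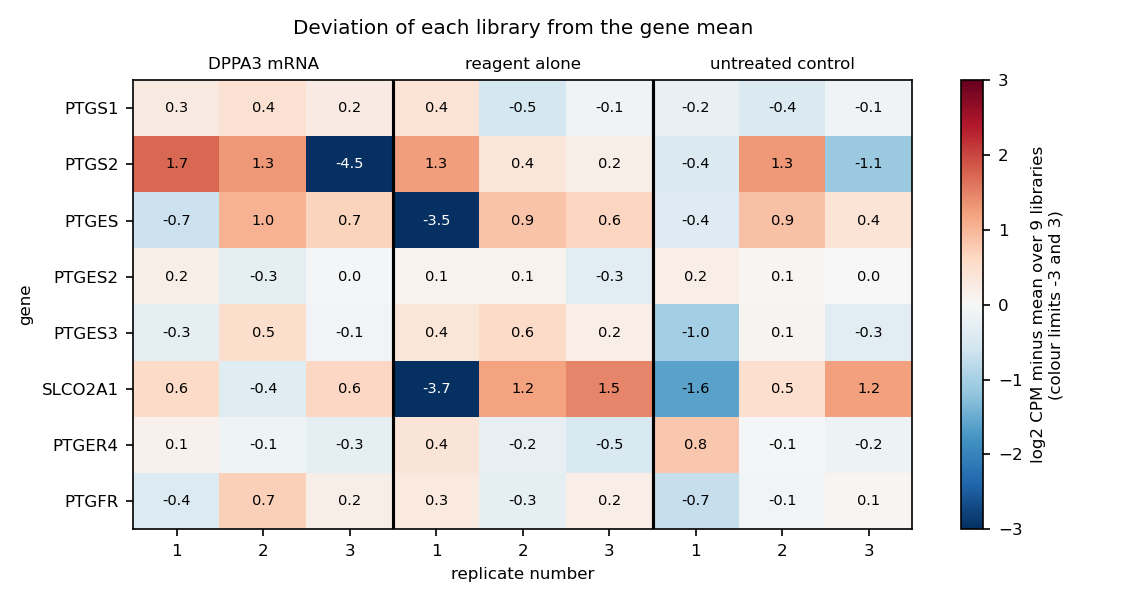
Log2 CPM of each tested prostaglandin gene (rows) in each library (columns, by group and replicate number), minus the gene's mean over the 9 libraries; colour limits are -3 and 3, and the numbers give the deviation. The widest deviations belong to single libraries: PTGS2 in DPPA3 mRNA replicate 3, and PTGES and SLCO2A1 in reagent alone replicate 1, where the sizes for PTGS2 and SLCO2A1 are set by the prior count added to a count of 0.

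The members' levels were also set against the replicate number, whose meaning the labels do not give. A test of the replicate number in the edgeR fit with the number as a block, chosen after seeing the data, called 0 of the 8 members at an adjusted p under 0.05 (background 1.47%). At an unadjusted p under 0.05 there were 3 of 8, PTGES, PTGES3 and PTGER4 (background 19.8%). PTGES was lowest in replicate 1 of each group, as 11.5% of all genes were, and PTGER4 and PTGES2 were highest there, as 10.9% were.

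The 3 members that varied most were PTGS2, SLCO2A1 and PTGES, with SDs of 1.94, 1.67 and 1.43 in log2 CPM. The first 2 each have 1 library at 0 counts, whose log2 value is set by the prior count. With that library at the floor of 3 counts, a setting chosen after seeing the data, their SDs were 1.31 and 0.95, below that of PTGES. For each, the 3 genes with the most similar profile over the 9 libraries were sought among the tested genes with a mean of at least 5 CPM and a name other than a LOC number, by the root mean square difference of log2 CPM after centring. PTGES was closest to ITIH5 (difference 0.48), GARNL3 (0.64) and DRP2 (0.72). ITIH5 measured 4.90, 17.3 and 23.6 CPM in the DPPA3 mRNA libraries, 1.25, 18.1 and 22.4 CPM in the reagent alone libraries, and 4.83, 16.7 and 23.4 CPM in the untreated control libraries, with replicate 1 lowest in each group as for PTGES. SLCO2A1 was closest to ITIH5 (0.76), PTGES (0.86) and GARNL3 (0.93). PTGS2 was closest to NR4A1 (1.40), SLC7A11 (1.44) and NECTIN4 (1.44). The differences for SLCO2A1 and PTGS2 depend on their library at 0, a value that genes of at least 5 CPM could hardly match.

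The rest of the prostanoid pathway was examined with a list of 31 other genes, of which 28 were found in the table and 22 tested. DESeq2 gave TBXAS1 no adjusted p for DPPA3 mRNA against untreated control. None of the 22 was called in any comparison by edgeR or DESeq2. At an unadjusted p under 0.05 there was 1 of 22 in each, TBXAS1 for DPPA3 mRNA against reagent alone and PTGR2 in both comparisons against untreated control, against backgrounds of 1.67%, 3.91% and 10.2%. In 1 of the 22 genes, PPARD, every DPPA3 mRNA library lay above every reagent alone library (background 4.91%). In 1, PTGR3, every one lay below (background 3.99%). The median log2 fold change of the list was 0.13 for DPPA3 mRNA over reagent alone, -0.06 for DPPA3 mRNA over untreated control and -0.26 for reagent alone over untreated control.

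PTGR2, a reductase that takes part in the breakdown of prostaglandin E after HPGD has acted, measured 23.0, 28.6 and 25.4 CPM in the DPPA3 mRNA libraries. It measured 24.7, 22.01 and 28.2 CPM in the reagent alone libraries, and 8.06, 17.97 and 21.3 CPM in the untreated control libraries. Both groups that received the reagent lay above the untreated control libraries without overlap, as did 2 of the 22 genes for DPPA3 mRNA (background 4.24%) and 2 for reagent alone (background 6.92%), PTGR2 included, with log2 fold changes of 0.69 for DPPA3 mRNA (SE 0.29, edgeR adjusted p 0.85) and 0.65 for reagent alone (SE 0.29, adjusted p 0.47). Against each other they differed by a log2 fold change of 0.039 (SE 0.29, adjusted p 0.9998). Without untreated control replicate 1, the lowest library, the values over untreated control were 0.39 and 0.36. Neither comparison passed the threshold, and the 2 share their controls.

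Release of arachidonic acid from membranes is mainly the work of PLA2G4A, the cytosolic phospholipase. It measured 22.3, 31.9 and 21.0 CPM in the DPPA3 mRNA libraries, against 39.3, 34.6 and 27.1 CPM in the reagent alone libraries, and 11.3, 33.5 and 17.0 CPM in the untreated control libraries. The reagent alone mean was the highest, and the groups overlapped. The log2 fold change of reagent alone over untreated control was 0.69 (SE 0.33, edgeR adjusted p 0.47), or 0.42 without untreated control replicate 1 and 1.23 without untreated control replicate 2, and that of DPPA3 mRNA over reagent alone was -0.42 (SE 0.33, adjusted p 0.9998).

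TBXAS1, the thromboxane synthase, had 9, 35 and 5 counts in the DPPA3 mRNA libraries, against 2, 2 and 1 counts in the reagent alone libraries, and 9, 13 and 0 counts in the untreated control libraries. The reagent alone libraries lay under the floor of 3 counts each, so the fitted log2 fold change of DPPA3 mRNA over reagent alone rests on very few counts. It sets no limit, and its value was 2.76 (SE 1.27, edgeR adjusted p 0.9998), or 1.40 without DPPA3 mRNA replicate 2 and 3.36 without reagent alone replicate 1. CBR3, a carbonyl reductase related to the prostaglandin-reducing CBR1, averaged 11.6 ± 3.18 (DPPA3 mRNA), 13.5 ± 1.09 (reagent alone) and 16.03 ± 0.77 CPM (untreated control; SD, n = 3 each). Its log2 fold change was -0.46 for DPPA3 mRNA over untreated control (SE 0.24, adjusted p 0.85), or -0.26 without DPPA3 mRNA replicate 2. The libraries did not overlap, which held for 2 of the 22 genes in that direction (background 3.86%). The other was PTGR3, at a log2 fold change of -0.20 (SE 0.16, edgeR adjusted p 0.85). CBR3 was also lower without overlap with reagent alone against untreated control, at a log2 fold change of -0.25 (SE 0.25, edgeR adjusted p 0.64). That held for 1 of the 22 genes (background 7.21%). The DPPA3 mRNA and reagent alone libraries of CBR3 overlapped. The secreted phospholipases PLA2G2A and PLA2G5 had 0 counts in every library, and HPGDS, PTGDR2, TBXA2R and PPARG had too few to be tested.

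**Figure D4:**
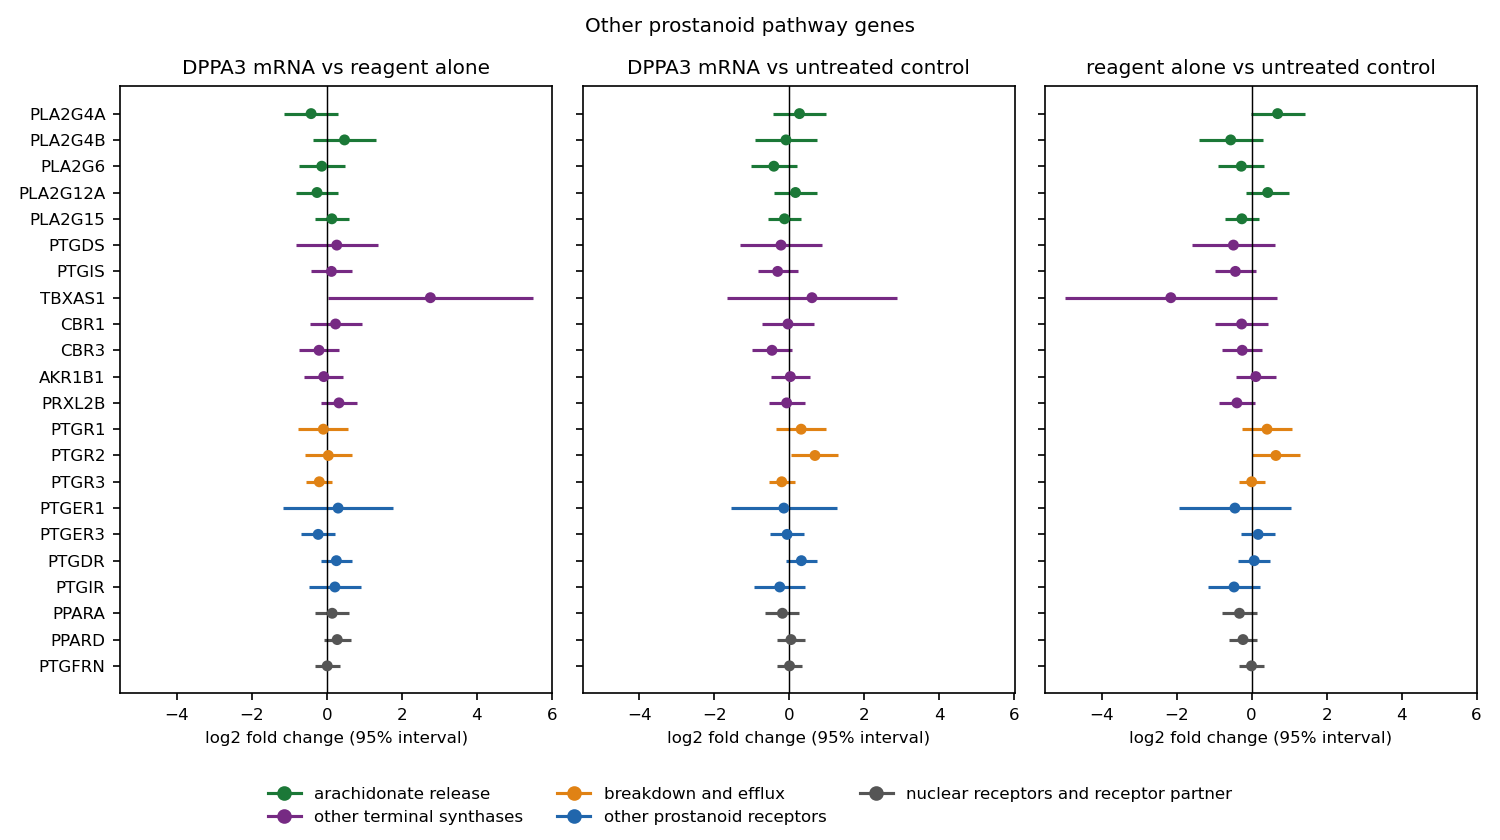
Log2 fold change (points) and 95% interval (lines, horizontal axes) of 22 other genes of prostanoid synthesis, breakdown and reception in the 3 comparisons, coloured by role, with positive values higher in the first-named group. The points of PTGR2 lie at 0.69 and 0.65 in the comparisons with untreated control and at 0.039 between the groups that received the reagent, and TBXAS1, with few counts, has the widest intervals.

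Genes that respond to cyclic AMP, the messenger raised by PTGER4, were set beside the receptors. Of 13 such genes 12 were tested and 0 were called in any comparison by edgeR or DESeq2, where edgeR called 0.00672%, 0.0134% and 0% of all genes and DESeq2 0.0605%, 0.0672% and 0.0134%. DESeq2 gave NR4A3 and FOSB no adjusted p for DPPA3 mRNA against untreated control. At an unadjusted edgeR p under 0.05 there were 0 of 12 in each comparison, against 1.67%, 3.91% and 10.2% of all genes. Their median log2 fold change was 0.23 for DPPA3 mRNA over reagent alone, with -0.06 and -0.35 for DPPA3 mRNA and for reagent alone over untreated control. FOS, an immediate early transcription factor, had the smallest p of the list, with means of 44.6 ± 16.6 (DPPA3 mRNA), 35.3 ± 6.56 (reagent alone) and 49.7 ± 9.22 CPM (untreated control; SD, n = 3 each). Its log2 fold change of reagent alone over untreated control was -0.50 (SE 0.26, edgeR adjusted p 0.47). PER1 and PDE4D had log2 fold changes of -0.37 and -0.34 in the same comparison, with edgeR adjusted p of 0.47 and 0.53. Without untreated control replicate 1 PER1 was at -0.16, and without untreated control replicate 2 at -0.58, with an adjusted p of 0.074. Without reagent alone replicate 3 PDE4D was at -0.14, and without reagent alone replicate 1 at -0.51. NR4A2 had its smallest p for DPPA3 mRNA over reagent alone, with a log2 fold change of 0.54 (adjusted p 0.9998; 0.34 to 0.76 with single libraries left out). For reagent alone over untreated control it was -0.53 (adjusted p 0.53), or -0.23 without untreated control replicate 1. AREG, a growth factor gene induced by prostaglandin E in several tissues, had 0 counts in every library.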

How the data were processed

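The authors deposited raw read counts per gene symbol for 9 libraries, 1 column each. TRIzol extraction, a DNase step and the IDT xGen library kit are named, per the labels' protocols. Per the submitters' processing notes, Trimmomatic, HISAT2, HTSeq and edgeR were used. For their roles and versions, the build, the annotation and strand the sources used here give nothing. Reads of overlapping genes therefore cannot be told apart, such as PTGS1 with MIR10175, or SLCO2A1 and PTGER2 each with an uncharacterised locus in the RefSeq table of ARS-UCD2.0. Whether copies of PTGES3 elsewhere in the genome share its reads was not tested.

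Genes were filtered with filterByExpr, scaled with TMM factors and fitted over the 3 groups with edgeR 4.0.16 (glmQLFit, glmQLFTest) in R 4.3.3, with calls at an adjusted p (Benjamini-Hochberg) under 0.05. An SE is the log2 fold change over the root of F, and the 95% interval uses the F test's degrees of freedom. CPM use the scaled library sizes, log2 CPM add a prior count of 0.5, and the floor for 0 was 3 counts a library, 0.226 to 0.747 CPM. No 2 libraries of a group agreed within sampling noise (chi-square per degree of freedom at least 13.4). DESeq2 1.42.0 ran on the same genes, and those to which it gave no adjusted p were counted as not called. The scripts were tested on simulated data. ZADH2 and FAM213B in the table were read as PTGR3 and PRXL2B.

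The members, lists and tests were chosen with earlier results of these data known. The text names all members; up to 4 genes of each other list by the smallest p; and 3 similar genes for each of the 3 most variable members. PLA2G2A, PLA2G5, AREG, PTGDS, PTGIS, DUSP1, PPARD and PTGR3 were named after their values were seen. All groups share replicate numbers. Deviations from group means correlated between equal numbers of DPPA3 mRNA and untreated control at 0.29, 0.28 and 0.13, all over 0.1, so the numbers were read as pairing these libraries, which the labels do not state. Between DPPA3 mRNA and reagent alone they were 0.12, 0.092 and 0.071. Between reagent alone and untreated control they were 0.13, 0.12 and 0.076. Unequal numbers of different groups correlated at 0.039 at most, below every equal pair. The SEs, intervals and p-values of the fold changes come from the fit without the replicate number, so differences between replicate numbers stay in their error.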

Additional observations from a re-analysis of the deposited data

How the results depend on the processing

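The 8 tested members in 3 comparisons gave 24 log2 fold changes, and 0 were called under any alternative. The lowest adjusted p of a member was 0.061. Counts of called members and of other pathway genes stayed at 0 throughout. The numbers of genes called between DPPA3 mRNA and reagent alone, between DPPA3 mRNA and untreated control, and between reagent alone and untreated control were 66, 69 and 18 when no filter was used. DESeq2 gave 9, 10 and 2. Dropping replicate 1 of all groups, chosen after seeing the data, gave 8, 13 and 1. Single libraries left out gave 1 to 20, 1 to 26 and 0 to 1. With the replicate number as a block they were 2, 7 and 0, against 1, 2 and 0 without it. The block changed no call of a member. Leaving DPPA3 out of library sizes also took it out of the test, and gave 0 and 0 for its comparisons.

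Of the 24 fold changes 16 reversed direction under at least 1 alternative, in 33 of 311 values. For DPPA3 mRNA over reagent alone, PTGER4 was at -0.0032 with DESeq2 and -0.0035 without DPPA3, and PTGS2 at -0.26 with the block. For DPPA3 mRNA over untreated control, SLCO2A1 was at 0.16 with the block, and PTGS2 at -0.23 without replicate 1 of all groups. For reagent alone over untreated control that setting gave -0.021 for PTGS1, -0.27 for PTGS2, 0.10 for PTGES and -0.0069 for PTGFR. With single libraries left out, the ranges for DPPA3 mRNA over reagent alone were -0.31 to 0.93 for PTGS2, -0.17 to 0.27 for PTGER4, -0.25 to 0.64 for PTGES, -0.14 to 0.10 for PTGES2, -0.17 to 0.40 for PTGFR and -0.047 to 0.14 for PTGR2. DPPA3 mRNA over untreated control gave -0.25 to 0.47 for PTGES, -0.60 to 0.49 for SLCO2A1 and -0.52 to 0.031 for PTGER4. Reagent alone over untreated control gave -0.045 to 0.40 for PTGS1, -0.11 to 1.44 for PTGS2, -0.53 to 0.35 for PTGES, -0.18 to 0.017 for PTGES2, -0.033 to 1.08 for SLCO2A1 and -0.61 to 0.026 for PTGER4. The alternatives for genes other than the members, such as PTGR2, were chosen after seeing the data. The cause was not tested. SLCO2A1 missed the count filter in 1 of the fits on 6 libraries. HPGD and PTGER2 had too few counts for a test.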

Other observations

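In the test of the replicate number, chosen after seeing the data, the members with an unadjusted p under 0.05 were PTGES (edgeR adjusted p 0.065), PTGES3 (0.080) and PTGER4 (0.090). For PTGES the fitted level of replicate 2 exceeded that of replicate 1 by a log2 difference of 1.91, and the fitted level of replicate 3 exceeded it by 1.57. For PTGER4 the differences were -0.58 and -0.74.

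Of the 22 other pathway genes 2 were called by replicate number (background 1.47%) and 9 had an unadjusted p under 0.05 (background 19.8%). Both called genes had their highest value in replicate 1 of each group, as did 10.9% of all genes tested. PTGDS, the prostaglandin D synthase, measured 48.9, 18.3 and 23.9 CPM in the DPPA3 mRNA libraries, 46.3, 15.4 and 16.5 CPM in the reagent alone libraries, and 64.0, 19.6 and 23.7 CPM in the untreated control libraries (edgeR adjusted p 6.7e-04 for the replicate term). PTGIS, the prostacyclin synthase, measured 286, 173 and 199 CPM in the DPPA3 mRNA libraries, 236, 187 and 181 CPM in the reagent alone libraries, and 390, 207 and 219 CPM in the untreated control libraries (adjusted p 0.036). Of the 12 tested cyclic AMP response genes, 1 was called by replicate number, DUSP1 (adjusted p 0.042, background 1.47%), and 7 had an unadjusted p under 0.05 (background 19.8%).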
